A study of Bos taurus with 34 samples.

Results

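The mRNA of peripheral white blood cells (PWBC) was compared between 6 heifers that became pregnant to artificial insemination (AI-preg heifers 92, 99, 114, 117, 119 and 120) and 5 heifers that ended the breeding season without a pregnancy (non-pregnant heifers 94, 101, 107, 113 and 115). Libraries were chosen by the pregnancy outcome in their labels alone, and they are 11 of the 17 PWBC libraries of the series. The other 6 come from heifers that conceived later to bulls (NB-preg) and entered the fit only to estimate the spread between heifers. All animals were crossbred Angus-Simmental heifers of breeding age from 1 herd, and each gave 1 library. They had received the same vaccines, the same estrous synchronization and semen of a single sire. Blood was drawn from the jugular vein right after insemination, before any outcome was known, and red cells were lysed from the buffy coat. The labels name no genotype or treatment that separated the groups, and genotypes were not given. Reproductive tract score varied within the herd, and the labels do not give it. The comparison asks whether the leukocyte transcriptome on that day differed with the later outcome. The label non-pregnant covers a whole season with AI and bulls, and the cause of infertility in each animal was not given. A further non-pregnant library was removed by the authors for its low yield and was not analysed here.

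PWBC are a mixture of lymphocytes, neutrophils, monocytes and rarer cells. Neutrophils are short-lived phagocytes that are made in the bone marrow under granulocyte colony-stimulating factor, follow chemokines into tissue and kill microbes with an oxidative burst. Lymphocytes carry antigen receptors or, as natural killer cells, inhibitory and activating receptors. In an RNA pool of this kind, fewer cells of a type and less RNA per cell cannot be told apart.

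Between 15353819 and 67192941 read pairs were counted on genes in the AI-preg heifers (median 32535945) and between 4184999 and 20164587 in the non-pregnant heifers (median 8175887). Depth in AI-preg was on geometric average 3.41 times that in non-pregnant (two-sided p = 0.0130 by an exact permutation of the 462 possible arrangements), so low genes rested on fewer counts in non-pregnant heifers. Of 27570 genes, 10942 reached at least 2 counts per 1e6 counts (CPM) in 5 or more of the 17 libraries and were tested. Transcripts of neutrophils (S100A12), T cells (LCK), natural killer cells (NKG7) and plasma cells (JCHAIN) were detected in every one of the 11 libraries. No marker of monocytes or red cells could be checked, since no gene of those lists had a symbol in the tables held. Non-pregnant heifers differed more among themselves than AI-preg heifers did, with a median standard deviation over genes of 1.10 against 0.785 in log2(CPM + 1). Heifers 94, 107 and 113 stood apart from 101 and 115 in many of the genes below. Heifer 115 was the least like the other non-pregnant heifers, with a median Pearson's r of 0.638 over genes, and heifer 101 followed at 0.753.

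No gene passed an adjusted p of 0.05 in edgeR's quasi-likelihood test (percent called 0.0), and the smallest adjusted p was 0.780. At a nominal p of 0.05 or less there were 585 genes (5.35% of those tested), with 301 higher (2.75%) and 284 lower (2.6%) in AI-preg. edgeR's likelihood ratio test also gave 0 genes at an adjusted p of 0.05 (791 at a nominal p of 0.05 or less, smallest adjusted p 0.394). DESeq2's Wald test called 5 genes (0.0457%), all of them lower in AI-preg. The split by direction depended on the scaling. The median log2 fold change over all genes, AI-preg minus non-pregnant, was 0.149 with library totals, 0.023 with edgeR's TMM factors and -0.16 with DESeq2's size factors, and the nominal counts were 222 higher and 398 lower with the former factors and 92 higher and 634 lower with the latter. For most genes below, CPM by library totals is given for each non-pregnant heifer beside the range in AI-preg. Genes described as lower or higher passed the nominal threshold of 0.05 unless stated, and their adjusted p in edgeR's quasi-likelihood test was 0.780 in every case.

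**Figure D1:**
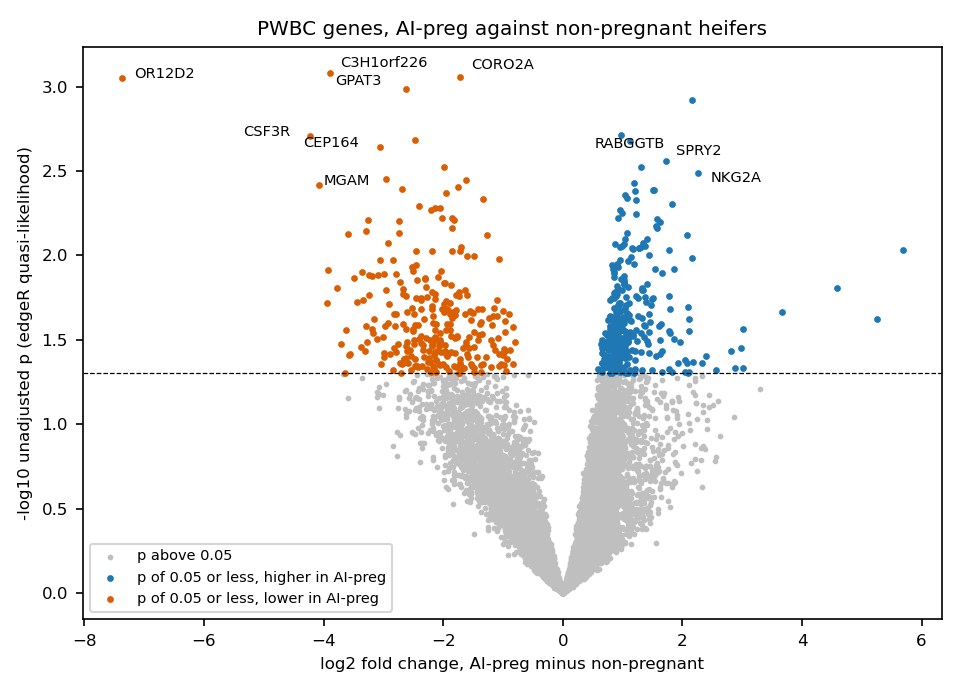
Each point is 1 of 10942 PWBC genes, with the log2 fold change of AI-preg minus non-pregnant on the horizontal axis and -log10 of the nominal p on the vertical axis, where coloured points have a nominal p of 0.05 or less. Most of the 301 blue points (higher in AI-preg) sit closer to 0 than most of the 284 orange points (lower in AI-preg), and the fitted position of OR12D2 rests on very few counts.

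Differences were larger among the genes lower in AI-preg. A log2 fold change of 2 or more in size was fitted for 61 genes higher and 294 genes lower in AI-preg, and one of 3 or more for 7 and 44. The standard error of the log2 fold change had a median of 0.650 (quartiles 0.479 and 0.890), so a gene at a log2 difference of 1 usually lay within 2 standard errors of 0. Gene symbols were at hand for 2228 of the genes tested, 202 of which the study itself had selected on this contrast, either in these libraries or in these combined with libraries of an earlier year. Genes called selected below are of either kind. Among those 202 genes, 33 were higher and 129 lower at the nominal threshold. Among the other 2026 with a symbol, 56 were higher and 50 lower, with a median log2 fold change of -0.25. Among the 8714 genes without a symbol, 212 were higher and 105 lower, with a median of 0.197. Genes named below come largely from the 202 that the study had selected, and their differences are not independent evidence.

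The 5 genes that DESeq2 called were C3H1orf226, OR12D2, GPAT3, CSF3R and CEP164. C3H1orf226 (ENSBTAG00000050790), the bovine counterpart of an open reading frame of human chromosome 1, had the smallest p. It ran from 0.194 to 2.67 CPM in AI-preg (median 1.02) and was at 40.4 CPM in heifer 94, 31.0 in heifer 107 and 13.7 in heifer 113, against 1.44 in heifer 101 and 0.860 in heifer 115. The log2 fold change was -3.89 ± 0.99 (SE, DESeq2 adjusted p = 0.0139). The groups overlapped through heifers 101 and 115 alone.

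CSF3R (ENSBTAG00000013334) encodes the receptor for granulocyte colony-stimulating factor, which drives the production of neutrophils. It was at 0.402 to 123 CPM in AI-preg (median 15.2), and non-pregnant heifers had 1101, 12.5, 636, 1241 and 42.3 CPM in the order 94, 101, 107, 113 and 115. Its log2 fold change was -4.23 ± 1.19 (SE, DESeq2 adjusted p = 0.0216). Heifers 94, 107 and 113 were above every AI-preg heifer, and 101 and 115 were within their range.

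GPAT3 (ENSBTAG00000017592), an acyltransferase of the first step of triglyceride synthesis, ran from 2.41 to 16.9 CPM in AI-preg (median 7.32). In non-pregnant heifers it had 65.3, 5.99, 78.4, 43.4 and 51.5 CPM in the same order, so that only heifer 101 lay in the AI-preg range. The log2 fold change was -2.62 ± 0.68 (SE, DESeq2 adjusted p = 0.0234).

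CEP164 (ENSBTAG00000014137), a protein of the distal appendages by which a centriole docks to form a cilium, separated the groups completely. AI-preg heifers had 0.0805 to 1.96 CPM (median 1.2), and non-pregnant heifers 13.2, 6.71, 10.2, 16.9 and 3.44 CPM. The log2 fold change was -3.06 ± 0.87 (SE, DESeq2 adjusted p = 0.0216).

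OR12D2 (ENSBTAG00000040188), an olfactory receptor gene, was close to absent. AI-preg heifers had 3 read pairs in all, every one in heifer 120, and 5 of these 6 libraries were at 0. The non-pregnant heifers had 127 read pairs, with 16, 8, 32, 0 and 71 in the order above. The pooled rate was 168 times higher in non-pregnant heifers (95% exact interval 56.4 to 828, which covers counting error only and not the spread between heifers). Heifer 115 gave 71 of the 127, and without it the pooled ratio was 86.9. Without heifer 113 the ratio was 263. The DESeq2 adjusted p was 0.0216. Heifer 113, one of the 3 highest in CSF3R, had no read of OR12D2.

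With each heifer left out in turn, the log2 fold change ranged over -4.31 to -3.32 for C3H1orf226, -2.98 to -2.38 for GPAT3, -5.41 to -3.79 for CSF3R and -3.28 to -2.79 for CEP164, and each of these fits passed the nominal threshold. All 5 genes had been selected by the study.

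**Figure D2:**
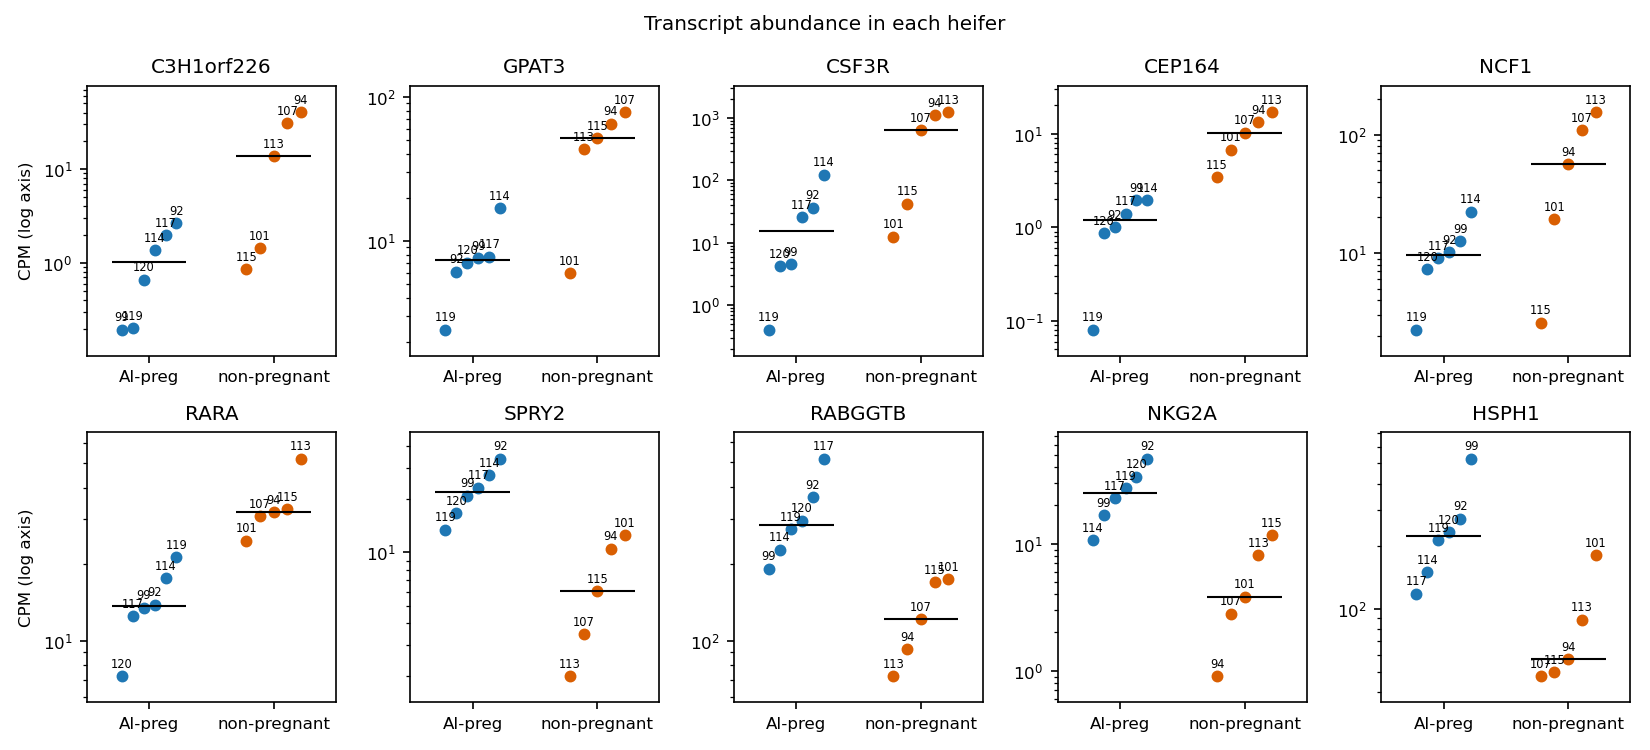
CPM of 10 genes on a log axis in each AI-preg (blue) and non-pregnant (orange) heifer, labelled with its number, and lines mark the group medians. CEP164, RARA, SPRY2 and RABGGTB separate the groups, whereas C3H1orf226, CSF3R and NCF1 overlap through heifers 101 and 115.

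Neutrophil genes were lower in AI-preg. Of the 29 genes on the neutrophil list, 11 were named and tested, and 9 of them were lower and 0 higher at the nominal threshold, where 2.6% of all genes were lower and 2.75% higher. The same shares are set beside the lists below, but lists hold only genes with a symbol. Of these, 129 of the 202 selected genes and 50 of the other 2026 were lower. Among the 8714 genes without a symbol, 105 were lower, so the shares over all genes understate the background of a list. The 11 neutrophil genes had a median log2 fold change of -2.51, against 0.149 over all genes tested. The study had selected 6 of the 11. Of the other 5, 3 were lower (CXCR2, S100A12 and TREM1), with a median of -1.83 over the 5. Those 3 missed the nominal threshold in at least 1 fit with a heifer left out (all 3 without heifer 113), and the 6 selected genes among the 9 passed it in every such fit.

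Among the receptors of this list, CXCR2 (ENSBTAG00000038042) binds neutrophil-attracting chemokines and TREM1 (ENSBTAG00000017593) amplifies inflammatory signals. CXCR2 was at 0.040 to 29.0 CPM in AI-preg and at 65.1, 4.56, 80.4, 100 and 14.9 CPM in non-pregnant heifers, a log2 fold change of -3.27 ± 1.43 (SE). Heifer 114 was the only AI-preg heifer above 2 CPM, and it lay above heifers 101 and 115. S100A12 (ENSBTAG00000012638), an abundant calcium-binding protein of the neutrophil cytosol, had 11790, 526.8, 10640, 10790 and 108.5 CPM in non-pregnant heifers and 74.8 to 4088 in AI-preg. CXCR2, TREM1, S100A12 and CYBB lie outside the rule for named genes, and the choice of them followed a look at their values.

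NCF1 (ENSBTAG00000003305), the cytosolic organizer of the NADPH oxidase that makes the oxidative burst, ran from 2.25 to 22.4 CPM in AI-preg (median 9.62). It was at 55.9, 19.4, 108, 155 and 2.58 CPM in non-pregnant heifers, and its log2 fold change was -2.69 ± 0.83 (SE). The same 3 heifers were high. In contrast, CYBB (ENSBTAG00000019953), which forms the membrane core of that oxidase and is also made by B cells and monocytes, had a log2 fold change of 0.57 ± 0.73 (SE) and missed the nominal threshold. Its highest value, 1306 CPM, was in AI-preg heifer 119, the heifer with the lowest CSF3R.

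MGAM and BST1, enzymes on the surface of neutrophils, gave another order of heifers than CSF3R did. MGAM (ENSBTAG00000046152), a glucosidase, was at 0.435 to 12.5 CPM in AI-preg (median 1.56) and at 42.0, 3.60, 34.2, 17.4 and 37.5 CPM in non-pregnant heifers. Its log2 fold change was -2.95 ± 0.89 (SE). BST1 (ENSBTAG00000006156), an ectoenzyme anchored to the membrane of myeloid cells, ran from 3.74 to 22 CPM in AI-preg and was at 39.6, 5.51, 93.7, 41.2 and 79.9 CPM in non-pregnant heifers (log2 fold change -2.74 ± 0.92, SE). For both genes heifer 115 was among the high non-pregnant heifers, and heifer 101 alone fell in the AI-preg range. This did not hold for VNN2 (ENSBTAG00000016357), a pantetheinase on the same cells that was lower in AI-preg as well, where heifers 101 (195 CPM) and 115 (709 CPM) were both below the highest AI-preg heifer (875 CPM). VNN2 was named after a look at its values.

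The summed abundance of the 11 neutrophil genes was 1164 to 4651 CPM in AI-preg (median 1978), and 14780, 2057, 13280, 13560 and 1583 CPM in the non-pregnant heifers. S100A12 made up most of the sum in heifers 94, 107 and 113, and CYBB was the largest part in heifer 101 and in AI-preg heifers 99, 119 and 120. Heifers 94, 107 and 113 were thus above every AI-preg heifer, and 101 and 115 were inside their range. A score of CXCR2 and TREM1 (mean log2(CPM + 1)) was also highest in these 3 heifers, at 5.45, 5.81 and 6.32 in heifers 94, 107 and 113, with 3.14 and 2.68 in heifers 101 and 115, and 0.686 to 4.0 in AI-preg. With this score as a covariate, 74 genes had a nominal p of 0.05 or less in place of 585, 43 of them higher and 31 lower in AI-preg, and 26 of the 74 were among the 585. CSF3R, NCF1, BST1, VNN2, C3H1orf226 and CEP164 then missed the threshold, and GPAT3, MGAM and OR12D2 did not. The log2 fold change of CEP164 was then -1.74. Both genes of the score were themselves lower in AI-preg, so the covariate takes up part of any difference between the groups. A miss with this covariate, here or below, therefore cannot tell neutrophil content from outcome, and the cause was not tested.

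**Figure D3:**
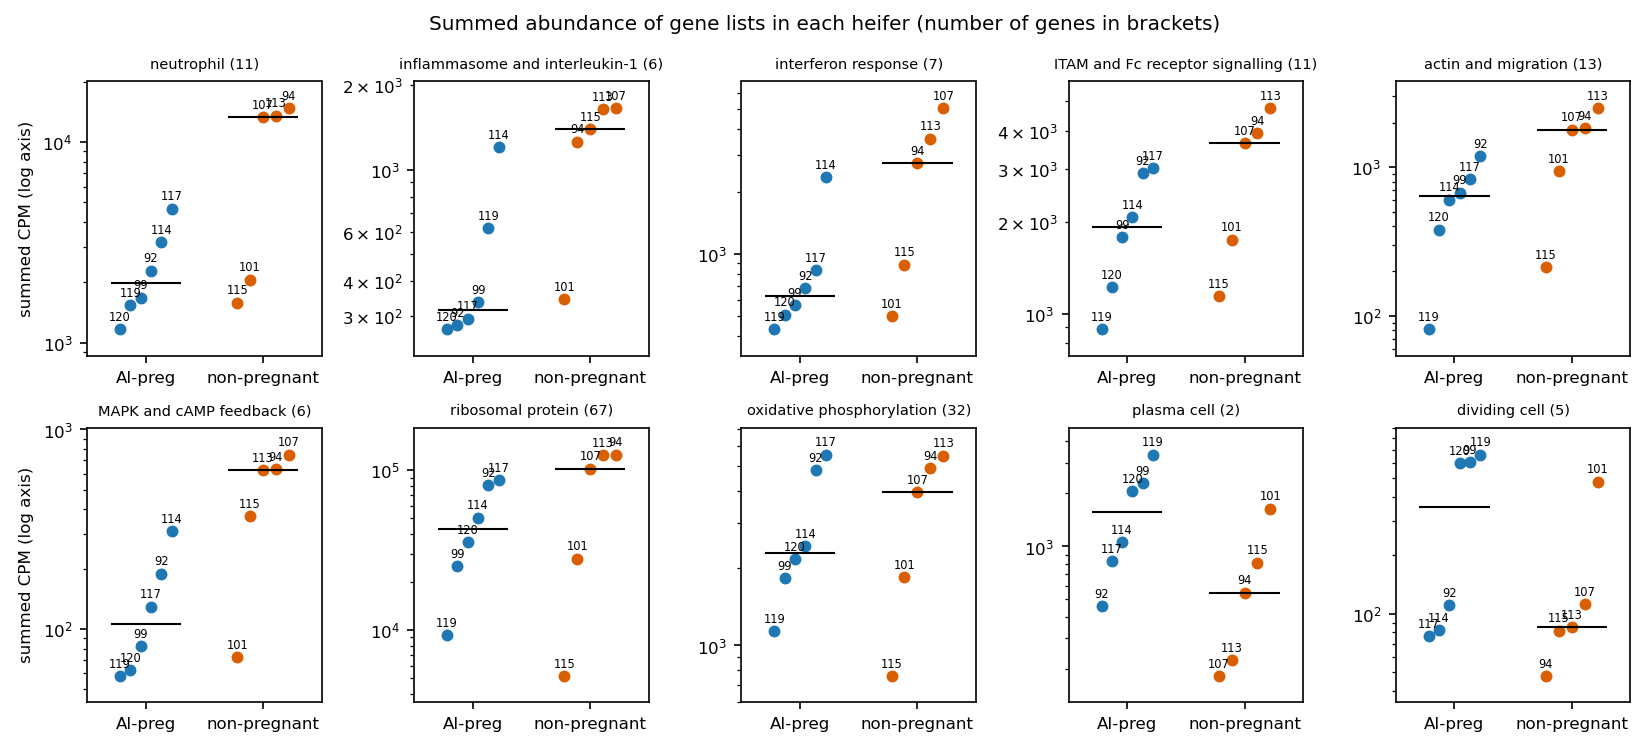
Summed CPM on a log axis for 10 gene lists in each AI-preg (blue) and non-pregnant (orange) heifer, labelled with its number, and lines mark the group medians and brackets the number of genes summed. Neutrophil genes reach 13280 to 14780 CPM in heifers 94, 107 and 113 and 1164 to 4651 in AI-preg, and heifers 101 and 115 lie within the AI-preg range.

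Genes of the interleukin-1 system and the inflammasome, the platform that activates interleukin-1β, were lower in AI-preg in 4 of 6 cases and higher in 0 (median log2 fold change -2.04, with 4 of the 6 selected by the study). IL1B (ENSBTAG00000001321), the cytokine itself, had not been selected. It ran from 1.61 to 269 CPM in AI-preg (median 7.58) and was at 576, 9.35, 794, 795 and 83.0 CPM in non-pregnant heifers (log2 fold change -3.18 ± 1.35, SE). IL1RN (ENSBTAG00000019665), the secreted antagonist that blocks the same receptor, was at 19.5 to 188 CPM and at 220, 37.4, 287, 290 and 418 CPM (log2 fold change -2.20 ± 0.70, SE). Ligand and antagonist were thus both higher in most non-pregnant heifers, but heifer 115 had the highest IL1RN and an IL1B well under that of heifers 94, 107 and 113. IL1B missed the nominal threshold without heifer 92, 117, 120, 107 or 113, and the other 3 genes lower in AI-preg passed it in every fit with a heifer left out.

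Of the intracellular sensors, ALPK1 (ENSBTAG00000034875), a kinase that detects a bacterial sugar, was at 3.38 to 26 CPM in AI-preg and at 63.1, 12.2, 65.9, 92.0 and 55.4 CPM in non-pregnant heifers (log2 fold change -2.19 ± 0.76, SE). NLRP1 (ENSBTAG00000020433), an inflammasome sensor, was at 2.37 to 11.2 CPM and at 19.9, 22.8, 36.2, 41.3 and 1.97 CPM (log2 fold change -1.87 ± 0.70, SE). NLRP1 was the reverse of ALPK1 in the non-pregnant heifers that overlapped, since heifer 101 was high and heifer 115 was the lowest of all 11. With the neutrophil score as a covariate IL1B, ALPK1 and NLRP1 missed the nominal threshold, at -0.50, -0.95 and -0.38. IL1RN still passed it, at -1.42.

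Interferon-induced genes were lower in AI-preg in 4 of 7 cases and higher in 0 (background 2.6% lower), with a median log2 fold change of -2.15 against 0.149 over all genes. Only 1 of the 7, ISG20, had been selected by the study, and it alone passed the nominal threshold in every fit with a heifer left out. IFIT3 missed it without heifer 107, IRF7 without 113, 99, 119 or 120, and IFIT2 without any 1 of 8 heifers and with TMM factors. IFIT3 (ENSBTAG00000009768), which binds in a complex on viral RNA, ran from 17.1 to 518 CPM in AI-preg (median 24.6) and was at 872, 37.6, 1655, 955 and 182 CPM in non-pregnant heifers. Its log2 fold change was -2.82 ± 1.14 (SE). IFIT2 (ENSBTAG00000034918), its partner, was at 23.1 to 514 CPM and at 546, 58.7, 722, 896 and 160 CPM (log2 fold change -2.06 ± 0.96, SE).

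IRF7 (ENSBTAG00000047680), the transcription factor that induces type I interferon, was low throughout, at 0.102 to 1.37 CPM in AI-preg and 3.10, 1.44, 3.19, 13.8 and 0 CPM in non-pregnant heifers (log2 fold change -3.0 ± 1.29, SE). ISG20 (ENSBTAG00000014762), an antiviral exonuclease, was at 0.333 to 9.00 CPM and at 16.2, 0.240, 37.3, 35.6 and 0.983 CPM (log2 fold change -3.06 ± 1.08, SE). With the neutrophil score as a covariate none of these 4 passed the nominal threshold, and the log2 fold change turned to 0.43 for ISG20 and 0.12 for IFIT2. In AI-preg, the summed interferon genes were highest in heifer 114, at 2349 CPM against 432 to 835 in the other 5.

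Receptors and kinases that signal through immunoreceptor tyrosine-based activation motifs (ITAM), by which Fc receptors trigger phagocytosis, were lower in 5 of 11 cases and higher in 0 (background 2.6% lower, median -1.35, with 2 selected by the study). NFAM1 (ENSBTAG00000005018), a receptor with such a motif, was at 0.040 to 2.0 CPM in AI-preg and at 13, 1.2, 8.46, 16.6 and 0.123 CPM in non-pregnant heifers (log2 fold change -2.90 ± 1.14, SE). FCAR (ENSBTAG00000021647), an Fc receptor for immunoglobulin A, was at 0 to 2.36 CPM and at 8.52, 0.240, 28.2, 11.2 and 0.246 CPM (log2 fold change -3.44 ± 1.35, SE).

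TYROBP (ENSBTAG00000007338), an adaptor that lends the motif to receptors of myeloid and natural killer cells, was at 1.89 to 57.7 CPM in AI-preg and at 205, 10.8, 162, 190 and 3.69 CPM in non-pregnant heifers (log2 fold change -2.19 ± 0.96, SE). FGR (ENSBTAG00000011784), a Src-family kinase of myeloid cells, was at 44.8 to 246 CPM and at 514, 184, 536, 622 and 37.4 CPM (log2 fold change -1.35 ± 0.58, SE). In all 4 of these genes heifers 94, 107 and 113 were above every AI-preg heifer. With the neutrophil score as a covariate the fitted difference of each of the 4 had the opposite sign and none of the 4 passed the nominal threshold. None of the 5 genes lower in AI-preg passed it in every fit with a heifer left out. Without heifer 107 it was missed by FCAR, FGR and TYROBP, and without heifer 113 by NFAM1, FGR and TYROBP.

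Genes of the actin cytoskeleton and of leukocyte migration were lower in 7 of 13 cases and higher in 0, with a median of -1.71. All 7 were among the 8 that the study had selected, and the 5 others had a median of -0.82. Of the 7, 5 passed the nominal threshold in every fit with a heifer left out. CORO2A (ENSBTAG00000007659), a coronin that binds actin, was at 18.3 to 67.3 CPM in AI-preg (median 50.6) and at 216, 49.4, 200, 207 and 116 CPM in non-pregnant heifers. Its log2 fold change of -1.71 ± 0.44 (SE) came with an overlap through heifer 101 alone.

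JAML (ENSBTAG00000023283), an adhesion molecule by which neutrophils and T cells bind epithelium, was at 7.60 to 119 CPM in AI-preg and at 308, 47.5, 242, 369 and 36.0 CPM in non-pregnant heifers (log2 fold change -2.14 ± 0.68, SE). LSP1 (ENSBTAG00000010447), an actin-binding protein of leukocytes, was at 0.483 to 4.56 CPM and at 12, 4.08, 18.9, 19.7 and 1.6 CPM (log2 fold change -2.19 ± 0.83, SE). ARAP3 (ENSBTAG00000015938), a GTPase-activating protein, had a log2 fold change of -2.46 ± 0.88 (SE), and PLEKHO1 (ENSBTAG00000004852), a pleckstrin homology domain protein, one of -2.02 ± 0.66 (SE). In each of these 4 genes, heifers 101 and 115 lay in the AI-preg range. With the neutrophil score as a covariate none of them, nor CORO2A, passed the nominal threshold, and the log2 fold change turned to 0.14 for JAML and 0.42 for PLEKHO1.

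Genes of feedback on mitogen-activated kinase and cyclic AMP signalling went in both directions. Of 6, 4 were lower and 1 was higher at the nominal threshold (median -1.86, with 5 selected by the study). SPRY2 (ENSBTAG00000001774), an inhibitor of receptor tyrosine kinase signalling, was the higher one. It ran from 13.4 to 34.0 CPM in AI-preg (median 22.1) and was at 10.5, 12.5, 3.44, 1.99 and 6.02 CPM in non-pregnant heifers, with no overlap. The log2 fold change was 1.72 ± 0.50 (SE), and it also passed the nominal threshold with the neutrophil score as a covariate.

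DUSP2 (ENSBTAG00000020350), a phosphatase that switches off mitogen-activated kinases in activated leukocytes, was at 0.121 to 21.3 CPM in AI-preg and at 104, 1.44, 153, 150 and 3.32 CPM in non-pregnant heifers (log2 fold change -3.59 ± 1.21, SE). RGS2 (ENSBTAG00000020620), which shortens G-protein signals, was at 13.6 to 123 CPM and at 233, 13.9, 347, 179 and 156 CPM (log2 fold change -2.45 ± 0.85, SE). STK40 (ENSBTAG00000015969), a serine/threonine kinase, had a log2 fold change of -1.86 ± 0.62 (SE). Heifer 115 was close to the 3 high heifers for RGS2 but near the AI-preg median for DUSP2. DUSP2, RGS2 and STK40 all missed the nominal threshold with the neutrophil score as a covariate, at -0.086, -0.87 and -0.52.

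Vesicle traffic genes were lower in 4 of 6 cases and higher in 0 (median -1.76, with 4 selected by the study). RAB31 (ENSBTAG00000046533), a small GTPase of the trans-Golgi network and endosomes, separated the groups with library totals but not with TMM factors. It was at 49.7 to 124 CPM in AI-preg (median 105) and at 228, 141, 374, 290 and 133 CPM in non-pregnant heifers (log2 fold change -1.34 ± 0.42, SE). WLS (ENSBTAG00000012976), the carrier that brings Wnt proteins to the cell surface, was at 19.1 to 129 CPM and at 409, 44.1, 387, 314 and 156 CPM (log2 fold change -2.47 ± 0.70, SE). RAB3D (ENSBTAG00000002148), a GTPase of secretory granules, had a log2 fold change of -1.82 ± 0.60 (SE), which turned to 0.14 with the neutrophil score as a covariate, and MCTP2 (ENSBTAG00000013689), a calcium-binding membrane protein, one of -1.70 ± 0.59 (SE). RAB31, WLS and MCTP2 were at -0.35, -0.61 and -0.57 with that covariate, and none of the 4 genes then passed the nominal threshold.

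Both named nuclear receptors of the retinoid pathway were lower in AI-preg. RARA (ENSBTAG00000012500), the retinoic acid receptor that drives the maturation of granulocytes, did not overlap between the groups with library totals and overlapped with TMM factors. It ran from 7.24 to 21.2 CPM in AI-preg (median 13.7) and was at 31.9, 24.7, 30.9, 52.0 and 32.8 CPM in non-pregnant heifers. The log2 fold change was -1.27 ± 0.43 (SE), and with the neutrophil score as a covariate it was -0.95 and missed the nominal threshold. Its dimerization partner RXRA (ENSBTAG00000017851) was at 11.9 to 34.2 CPM and at 94.7, 22.8, 54.0, 50.8 and 29.6 CPM (log2 fold change -1.19 ± 0.49, SE). RXRA missed the nominal threshold without heifer 94 or without heifer 120, and also with the neutrophil score as a covariate, at -0.38. The study had selected both, and the median over the 3 retinoid genes was -1.27.

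Of 4 genes of eicosanoid metabolism, 2 were lower and 0 higher. DAGLB (ENSBTAG00000009236), a lipase that releases an arachidonic acid precursor, was at 45.9 to 216 CPM in AI-preg (median 69.2) and at 355, 88.2, 259, 290 and 406 CPM in non-pregnant heifers (log2 fold change -1.61 ± 0.49, SE). ALOX5AP (ENSBTAG00000013201), which presents arachidonic acid to 5-lipoxygenase for leukotrienes, was at 0.966 to 38.2 CPM and at 142, 9.83, 145, 98.6 and 26.4 CPM (log2 fold change -2.37 ± 0.94, SE), which turned to 0.20 with the neutrophil score as a covariate. DAGLB missed the nominal threshold with that covariate, at -0.98. PTGES3 (ENSBTAG00000017967), a prostaglandin E synthase and co-chaperone, had a log2 fold change of 0.64 ± 0.45 (SE) and missed the nominal threshold. Without heifer 115 it was 1.18 and passed, whereas DESeq2's fit gave 0.20 and missed. The median over the list was -0.62, and that of the 2 genes the study had not selected was 0.51.

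In the tumour necrosis factor pathway 2 of 9 genes were lower and 0 higher (median -1.48), and both missed the nominal threshold without heifer 107 or without heifer 113. TNFRSF1A (ENSBTAG00000004211), the main receptor, was at 1.29 to 25.1 CPM in AI-preg and at 70.5, 18.2, 103, 120 and 0.492 CPM in non-pregnant heifers (log2 fold change -2.17 ± 0.88, SE). LTB (ENSBTAG00000020674), a membrane ligand of the same family, was at 0.644 to 31.7 CPM and at 130, 27.6, 148, 134 and 0.983 CPM (log2 fold change -2.37 ± 1.01, SE). Heifer 115 had the lowest or nearly the lowest value of all 11 heifers in both. With the neutrophil score as a covariate neither passed the nominal threshold, and the log2 fold change of TNFRSF1A turned to 0.45. The study had selected both genes.

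Several further genes lower in AI-preg belong to none of these groups. MS4A8 (ENSBTAG00000009289), a membrane protein of 4 spans, was at 11.9 to 57.7 CPM in AI-preg (median 36.7) and at 180, 67.6, 228, 119 and 28.5 CPM in non-pregnant heifers (log2 fold change -1.75 ± 0.54, SE). MIDN (ENSBTAG00000012172), which brings nuclear proteins to the proteasome, was at 4.45 to 23.3 CPM and at 52.6, 7.43, 54.0, 92.2 and 19.5 CPM (log2 fold change -1.96 ± 0.61, SE). LONRF3 (ENSBTAG00000002615), a RING finger protein, had a log2 fold change of -2.14 ± 0.92 (SE) and missed the nominal threshold without any 1 of 6 heifers. NFE2 (ENSBTAG00000001562), a transcription factor of megakaryocytes and red cell precursors, was at 0.523 to 85.5 CPM and at 285, 5.99, 277, 394 and 6.76 CPM (log2 fold change -3.35 ± 1.22, SE). Its log2 fold change was 0.52 with the neutrophil score as a covariate. In that fit MS4A8 was at -0.031, MIDN at -0.43 and LONRF3 at -0.94, and neither they nor NFE2 passed the nominal threshold.

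**Figure D4:**
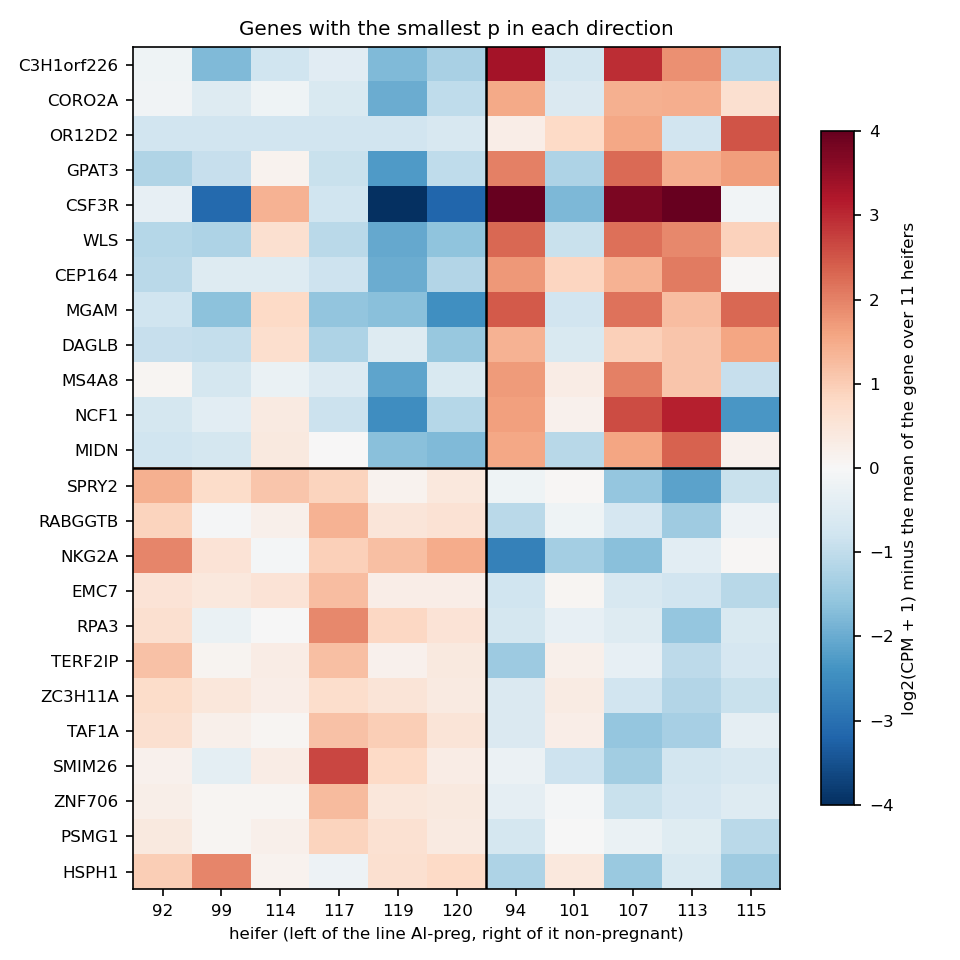
Log2(CPM + 1) minus the mean of the gene over the 11 heifers, for the 12 genes with a symbol and the smallest nominal p lower (top) and higher (bottom) in AI-preg, where red is above and blue below the mean, and colours end at 4. Heifers 94, 107 and 113 carry most of the red in the upper genes, heifer 101 is pale or blue in most of them, and the lower genes differ by less.

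The genes higher in AI-preg had smaller differences. Among the 12 with a symbol and the smallest p, 5 separated the groups besides SPRY2 with library totals. With TMM factors SPRY2, EMC7 and PSMG1 still did, RABGGTB, RPA3 and ZNF706 did not, and TERF2IP and ZC3H11A came to. With the neutrophil score as a covariate SPRY2, PSMG1 and ZNF706 passed the nominal threshold. RABGGTB, NKG2A, EMC7, RPA3, TERF2IP, ZC3H11A, TAF1A, SMIM26 and HSPH1 missed it, each still with a positive log2 fold change. RABGGTB (ENSBTAG00000018447), the catalytic subunit of the enzyme that attaches lipid anchors to Rab GTPases, was at 191 to 516 CPM in AI-preg (median 284) and at 92.6, 174, 121, 72.5 and 170 CPM in non-pregnant heifers (log2 fold change 1.30 ± 0.39, SE). EMC7 (ENSBTAG00000007385), a subunit of the complex that inserts proteins into the endoplasmic reticulum membrane, was at 67.3 to 133 CPM and at 32.0, 59.7, 35.7, 33.0 and 25.7 CPM (log2 fold change 1.19 ± 0.36, SE).

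RPA3 (ENSBTAG00000013168), the small subunit of the protein that coats single-stranded DNA, was at 47.4 to 220 CPM in AI-preg and at 34.6, 45.6, 40.0, 18.7 and 37.0 CPM in non-pregnant heifers (log2 fold change 1.51 ± 0.47, SE). PSMG1 (ENSBTAG00000013600), a chaperone of proteasome assembly, was at 82.7 to 146 CPM and at 47.2, 78.2, 64.5, 55.2 and 36.7 CPM (log2 fold change 0.93 ± 0.30, SE). ZNF706 (ENSBTAG00000008054), a small zinc finger protein, was at 125 to 286 CPM and at 92.2, 112, 63.8, 74.2 and 82.6 CPM (log2 fold change 0.96 ± 0.31, SE) and missed the nominal threshold with DESeq2's size factors and in its test. In RABGGTB, EMC7, RPA3, PSMG1 and ZNF706, the lowest AI-preg heifer was above heifer 101 by a small margin only.

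NKG2A (ENSBTAG00000052658), an inhibitory receptor of natural killer cells and cytotoxic T cells, was at 10.7 to 46.8 CPM in AI-preg (median 25.2) and at 0.904, 3.84, 2.82, 8.11 and 11.7 CPM in non-pregnant heifers. Its log2 fold change was 2.27 ± 0.68 (SE), and only heifer 115 reached the lowest AI-preg value. The other natural killer and cytotoxic genes did not go the same way. GZMB (ENSBTAG00000010057), a protease of cytotoxic granules, was at 0.402 to 5.28 CPM in AI-preg and at 4.45, 4.32, 11.8, 19.0 and 0 CPM in non-pregnant heifers (log2 fold change -2.52 ± 1.00, SE). NKG7 (ENSBTAG00000009137), a membrane protein of the same granules, had a log2 fold change of -0.70 ± 0.60 (SE) and missed the nominal threshold. Of the 4 genes of this list, 1 was higher and 1 lower, and the study had selected all 4. GZMB missed the nominal threshold without heifer 113.

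TERF2IP (ENSBTAG00000015686), a telomere-binding protein also known as Rap1, was at 63.9 to 137 CPM in AI-preg (median 74.7) and at 20.8, 67.1, 46.1, 27.6 and 36.1 CPM in non-pregnant heifers (log2 fold change 1.22 ± 0.38, SE). HSPH1 (ENSBTAG00000005012), a co-chaperone of the HSP110 family, was at 118 to 527 CPM and at 57.4, 181, 47.5, 88.9 and 49.6 CPM (log2 fold change 1.57 ± 0.51, SE). In both genes heifer 101 alone overlapped with AI-preg. The remaining named members of the telomere list and of the chaperone list missed the nominal threshold in edgeR's quasi-likelihood test. That of the chaperone list, with a negative log2 fold change, passed it in DESeq2's Wald test and without heifer 115.

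ZC3H11A (ENSBTAG00000050925), a zinc finger protein of mRNA export, was at 198 to 276 CPM in AI-preg (median 230) and at 110, 204, 96.8, 71.6 and 88.4 CPM in non-pregnant heifers (log2 fold change 1.05 ± 0.33, SE). A second identifier carries the same symbol, and reads that aligned to several places were left out by the authors, so its level is uncertain if the copies are near-identical. TAF1A (ENSBTAG00000013483), a factor of RNA polymerase I, was at 61.6 to 132 CPM and at 38.5, 70.5, 19.4, 22.4 and 45.7 CPM (log2 fold change 1.23 ± 0.39, SE). It was the only one of these 12 genes that the study had not selected. SMIM26 (ENSBTAG00000051249), a small membrane protein, was at 22.4 to 196 CPM and at 25.3, 16.5, 10.9, 17.4 and 18.9 CPM (log2 fold change 1.82 ± 0.58, SE). The highest SMIM26 value was that of heifer 117, and this heifer set the weakest of the fits with 1 heifer left out, with a log2 fold change of 1.04 that still passed the nominal threshold.

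Genes of cilia and flagella went in both directions, with 1 of 4 higher and 2 lower. MNS1 (ENSBTAG00000000271), a protein of sperm flagella and motile cilia, was at 9.16 to 16.2 CPM in AI-preg (median 10.9) and at 3.23, 10.1, 0.613, 2.04 and 0.983 CPM in non-pregnant heifers (log2 fold change 1.77 ± 0.69, SE). ENKUR (ENSBTAG00000015569), an adaptor of the sperm flagellum, was at 0.746 to 6.07 CPM and at 20.7, 0.479, 20.6, 12.9 and 41.7 CPM (log2 fold change -3.25 ± 1.25, SE). Heifer 115 had the highest ENKUR of the AI-preg and non-pregnant heifers. MNS1 and ENKUR both missed the nominal threshold with the neutrophil score as a covariate, at 1.28 and -2.10.

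Kinetochore genes of dividing cells also went in both directions. NUF2 (ENSBTAG00000007247), which attaches chromosomes to the spindle, was at 8.48 to 97.2 CPM in AI-preg and at 3.36, 25.2, 4.91, 1.64 and 7.25 CPM in non-pregnant heifers (log2 fold change 2.16 ± 0.76, SE). PMF1 (ENSBTAG00000009432), a kinetochore protein, had a log2 fold change of -2.45 ± 0.95 (SE) and missed the nominal threshold without heifer 107, and it turned to 0.94 with the neutrophil score as a covariate. NUF2 fell to 0.46 with that covariate and missed the nominal threshold. TOP2A (ENSBTAG00000019262), a topoisomerase of dividing cells that the study had not selected, was at 24.7 to 372 CPM and at 12.9, 176, 28.5, 19.2 and 45.2 CPM (log2 fold change 1.55 ± 0.96, SE) and missed the nominal threshold. The summed level of the 5 genes of this list was 596 to 660 CPM in AI-preg heifers 99, 119 and 120, 478 in non-pregnant heifer 101 and 47.8 to 112 in the other 7 heifers.

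Plasma cell genes had a median log2 fold change of 1.35, and neither of the 2 passed the nominal threshold. JCHAIN (ENSBTAG00000018531), which joins secreted antibodies, was at 454 to 3322 CPM in AI-preg (median 1554) and at 544, 1635, 182, 222 and 810 CPM in non-pregnant heifers (log2 fold change 1.29 ± 0.67, SE). TNFRSF17 (ENSBTAG00000049285), a survival receptor of plasma cells, had a log2 fold change of 1.41 ± 0.69 (SE). TNFRSF17 narrowly passed the threshold with TMM factors and in DESeq2's test, and both genes passed it in the likelihood ratio test. Neither passed with the neutrophil score as a covariate. The T cell list had 0 of 2 genes past the threshold, with LCK (ENSBTAG00000012695), the kinase next to the T cell receptor, at -1.14 ± 0.87 (SE) and GATA3 (ENSBTAG00000017243), a T cell transcription factor, at -0.58 ± 0.43 (SE). The B cell list had 0 of 4, with a median of -1.0. Summed T cell genes ran from 24.7 to 276 CPM in AI-preg. In non-pregnant heifers they were at 442, 72.4, 329, 381 and 17.7 CPM, so heifers 94, 107 and 113 were above every AI-preg heifer here too. Summed B cell genes were at 48.1 to 1070 CPM in AI-preg and at 1009, 785, 670, 1871 and 16.1 CPM in non-pregnant heifers.

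Of the eosinophil and basophil genes, HRH2 (ENSBTAG00000044071), a histamine receptor, had a log2 fold change of -2.04 ± 0.89 (SE), which missed the nominal threshold without any 1 of 8 heifers and was 0.0052 with the neutrophil score as a covariate, and IL5RA (ENSBTAG00000000273), the interleukin-5 receptor of eosinophils, one of -0.96 ± 0.51 (SE), which missed the nominal threshold. TUBB1 (ENSBTAG00000018785), a tubulin of platelets, was at 77.2 to 1534 CPM in AI-preg and at 0.0645, 418, 0.491, 85.0 and 1530 CPM in non-pregnant heifers. It was nearly absent from heifers 94 and 107 and within the AI-preg range in heifer 113, and its log2 fold change of 1.10 ± 1.43 (SE) missed the nominal threshold. That value ran from 0.78 to 2.80 with 1 heifer left out, was 2.80 without heifer 115, and missed the threshold in each of those fits. Of 3 genes on the platelet list, NFE2 alone passed the threshold. NFE2 was high in heifers 94 and 107, at 285 and 277 CPM, where TUBB1 was nearly absent. Neither gene of the glucocorticoid list passed the threshold (median 0.34).

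Ribosomal protein genes passed the nominal threshold at about the share of all genes. Of 67 named and tested, 3 were lower and 0 higher, against 5.35% of all genes in either direction and 2.6% lower, and none of the 3 passed in every fit with a heifer left out (all 3 missed without heifer 113). The log2 fold change was below 0 in 62 of the 67, with a median of -0.79, and the highest value was 0.83, which missed the threshold. The 3 were RPL36 (ENSBTAG00000001794, -3.08 ± 1.13, SE), RPL28 (ENSBTAG00000023343, -1.70 ± 0.79, SE) and RPS15 (ENSBTAG00000019718, -1.95 ± 0.92, SE). With the neutrophil score as a covariate none of the 3 passed the nominal threshold, and RPL36 turned to 0.86 and RPS15 to 0.075. The sum over all 67 ran from 9277 to 87030 CPM in AI-preg (median 43120), and was 125400, 27950, 102200, 124500 and 5169 CPM in non-pregnant heifers. Heifers 94, 107 and 113 were above every AI-preg heifer, and heifer 115 was below every one. The 32 genes of oxidative phosphorylation had a median of -0.58, with 24 below 0 and none past the threshold, and the lowest sum was again that of heifer 115, at 761 CPM.

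The study combined edgeR and DESeq2, and kept genes with a nominal p of 0.03 or less in both and in each fit with 1 heifer left out. Applied to all genes tested, with the likelihood ratio test for edgeR, this rule left 71 genes (0.649%), 59 lower (0.539%) and 12 higher (0.11%) in AI-preg. Of the 71, 55 have a symbol and 65 are in the study's own selection, so this count largely repeats its choice and is no independent evidence. MGAT4D (ENSBTAG00000034281), of a family of sugar transferases, passed the rule at 1.00 to 3.67 CPM in AI-preg and 0, 1.2, 0, 0 and 0.492 CPM in non-pregnant heifers (log2 fold change 3.01 ± 1.26, SE). In the quasi-likelihood test it missed the nominal threshold without heifer 94, 107 or 113. N6AMT1 (ENSBTAG00000001412), a methyltransferase, did not pass the rule (log2 fold change 1.39 ± 0.54, SE) and missed the nominal threshold without heifer 119. With the neutrophil score as a covariate MGAT4D passed that threshold and N6AMT1 missed it. Of the 71 genes, 8 had a nominal p of 0.05 or less with the neutrophil score as a covariate, and 6 did not overlap between the groups.

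In 45 genes (0.411%) the groups did not overlap in CPM, 38 of them with every AI-preg heifer above every non-pregnant heifer (0.347%) and 7 with every one below (0.064%). With TMM factors 37 genes did not overlap, 32 higher and 5 lower. Of the 7, CEP164, RAB31 and RARA have a symbol. PCNA (ENSBTAG00000006065), the sliding clamp of DNA replication, was 1 of the 38 and was not selected by the study. It was at 278 to 553 CPM in AI-preg and at 261, 236, 181, 142 and 254 CPM in non-pregnant heifers (log2 fold change 0.92 ± 0.35, SE), but with TMM factors the groups overlapped and the nominal threshold was missed. PCNA lies outside the rule for named genes and its choice followed a look at its values. The gene with the smallest p of the 38, ENSBTAG00000051183, has no symbol in the tables held, and was at 18.2 to 36.9 CPM in AI-preg and at 1.23, 7.67, 6.99, 12.5 and 2.33 CPM in non-pregnant heifers (log2 fold change 2.17 ± 0.57, SE).

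Single heifers set how many genes passed. Without heifer 101 the nominal count was 1654, with 1245 higher and 409 lower in AI-preg, and without heifer 115 it was 1506, with 760 higher and 746 lower. Without heifer 113 it was 241, and without AI-preg heifer 114 it was 808. No adjusted call was made in any of these fits, in which the smallest adjusted p ranged from 0.232 to 0.9995. Genes without overlap numbered 429 without heifer 101 (378 higher and 51 lower in AI-preg) and 141 without AI-preg heifer 114 (96 and 45). Without heifer 115 they numbered 357 and the balance turned, with 150 higher and 207 lower. Groups with fewer heifers separate more often by chance, so these counts cannot be compared directly with that over all heifers.

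**Figure D5:**
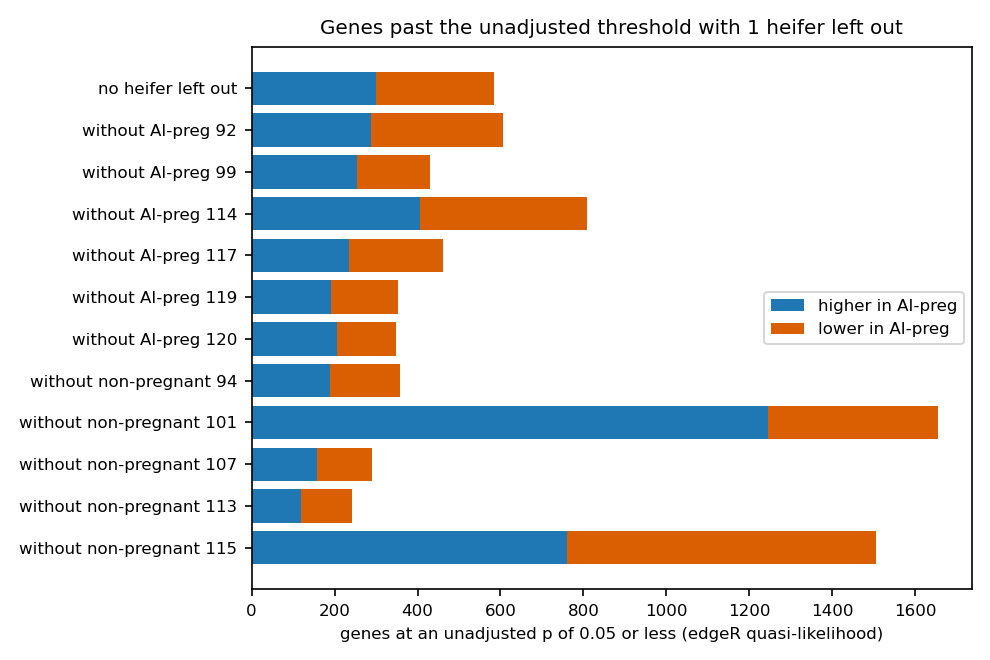
Number of genes at a nominal p of 0.05 or less, higher (blue) and lower (orange) in AI-preg, with all libraries and with each heifer left out in turn. The count is 585 with all libraries, 1654 without heifer 101 and 241 without heifer 113.

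The non-pregnant heifers thus took different places in the genes on either side. Among the 284 genes lower in AI-preg, the highest non-pregnant value was that of heifer 113 in 136, of heifer 107 in 71, of heifer 94 in 49, of heifer 115 in 28 and of heifer 101 in 0. The lowest was that of heifer 115 in 174 and of heifer 101 in 106. Among the 301 genes higher in AI-preg, heifer 101 had the highest non-pregnant value in 198, and the lowest was that of heifer 113 in 115 and of heifer 94 in 100.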

How the data were processed

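PWBC mRNA was sequenced in paired, stranded libraries, 1 per heifer. The authors aligned the reads with HISAT2 2.1.0 to the bovine genome ARS-UCD1.2, left out duplicates and reads that aligned to several places or with many mismatches, and counted read pairs by strand on Ensembl genes with featureCounts (1.6.0 in the submitters' processing notes, while the study's code names a later release). The deposited values are these raw counts. Depth sets the precision of low genes, and read pairs are not independent molecules, so counting intervals cover counting error only.

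A gene was kept when 5 or more of the 17 PWBC libraries had 2 CPM or above (10942 of 27570). edgeR 4.0.16 (R 4.3.3, limma 3.58.1) fitted the 3 outcome groups together with a robust quasi-likelihood test, library totals over kept genes and no scaling factor, with Benjamini-Hochberg adjustment over all kept genes and calls at 0.05. SE is the size of the log2 fold change divided by the square root of F. Tables and figures used Python 3.11.15, numpy 2.4.6, pandas 2.3.3 and scipy 1.17.1. Alternatives were TMM factors, DESeq2 1.42.0 size factors and its Wald test, the likelihood ratio test, the 11 libraries alone, other filters (10 CPM, or any count), counts thinned to 4170741 per library, a neutrophil score as a covariate, and each heifer left out. On simulated data for this comparison (10942 genes, 200 of them changed in all), adjusted calls were made for 0 of 67 genes changed 2-fold, 12 of 67 changed 4-fold and 34 of 66 changed 8-fold, with 1 false call.

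Symbols came from tables of the study and cover 2228 kept genes, so lists hold only members named there. Named were the 12 genes with a symbol and the smallest p in each direction, up to 4 members of each of 26 lists by p, a fixed list of genes from the study's text, which does not hold every gene named there, and the 5 most counted genes. CXCR2, TREM1, S100A12, CYBB, PCNA and VNN2 were added after their values were seen. The members and lists were chosen with earlier results of these data known. P-values measure the spread between heifers sampled on 1 occasion. Plasma small RNA was not used here.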

Additional observations from a re-analysis of the deposited data

Results flagged for a closer look

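In 8 of 74 groups tested, 1 heifer lay far from the others of its group (Dixon's criterion at 95%, on log2(CPM + 1)); chance flags about 1 in 20 groups. GPAT3 was at 2.81 in non-pregnant heifer 101, where the next heifer had 5.47. GATA3 was at 3.94 in non-pregnant heifer 115, below the next heifer at 5.02. Among AI-preg heifers, heifer 114 was high in WLS (7.02, next 5.31) and in LONRF3 (4.78, next 2.42). Heifer 117 was high in EMC7 (7.06, next 6.38) and in ZNF706 (8.17, next 7.36). MS4A8 was low in heifer 119, at 3.69 against 5.11 in the next. OR12D2 stood at 0.107 in heifer 120, the only AI-preg heifer with a read of this gene.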

How the results depend on the processing

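No adjusted call was made with edgeR under any scaling, filter, thinning, covariate or left-out heifer tried, and DESeq2's Wald test made 5. The nominal counts were 585 as reported, 1165 with DESeq2's test, 726 with its size factors, 1696 of 19661 genes without a filter, and from 241 to 1654 with 1 heifer left out. The study's rule kept 71 genes, and 360 without its leave-one-out part. Genes without overlap ran from 53 to 429 with 1 heifer left out, and the ratio of read pairs from 2.76 to 4.09. Fitted log2 fold changes changed sign only with the neutrophil score as a covariate among the genes named in the text. They became 0.14 for JAML, 0.42 for PLEKHO1, 0.14 for RAB3D, 0.43 for ISG20, 0.52 for NFE2, 0.86 for RPL36, 0.94 for PMF1, 2.17 for FCAR, 0.61 for NFAM1, 0.20 for ALOX5AP, 0.45 for TNFRSF1A, 0.22 for FGR, 0.0052 for HRH2, 1.79 for TYROBP, 0.12 for IFIT2, 0.075 for RPS15, 1.36 for LCK, 0.63 for NKG7, 1.54 for S100A12 and 0.65 for TREM1, and -0.35 for TOP2A, -0.63 for TUBB1 and -0.69 for CYBB. TREM1 is part of that score; the cause was not tested for the others. No paired analysis was possible because the groups share no heifer numbers. Depth limits low genes in the non-pregnant heifers most.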
